A study of Mus musculus with 32 samples.

Results

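Polysome profiling of 4T1 spheroids gave count data for 17757 genes, and 89 of them carry a symbol of a cytosolic ribosomal protein. The members were chosen by symbol alone (Rpl or Rps followed by a digit, or Rplp0, Rplp1, Rplp2 and Rpsa), without the 159 symbols containing -ps and without the Rps6k kinases, a rule that uses no measured value. They comprised 46 proteins of the large subunit, 31 proteins of the small subunit, 4 related paralogues (Rpl22l1, Rps27l, Rpl36al and Rpl7l1), 7 symbols of copies or retrogenes (Rps23rg1, Rpl32l, Rps3a2, Rps3a3, Rpl6l, Rpl37rt and Rps27rt) and Rps19bp1, which encodes a protein that binds RPS19 and is not itself a ribosomal protein. The ribosomal proteins Fau and Rack1 have other symbols and were counted in a separate list of TOP mRNAs.

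4T1 is a mouse mammary carcinoma cell line that is used as a model of triple-negative breast cancer. The cells formed spheroids in a lung-like medium (LLM) over 5 days, in 4 conditions. Control cells carrying a scramble shRNA received 700 µM aspartate (ASP shSCR) or no aspartate (NoASP shSCR). Cells with silenced Grin2d, a subunit of the NMDA receptor (ASP shGRIN2D), and cells with silenced Dhps, deoxyhypusine synthase (ASP shDHPS), also received 700 µM aspartate, so neither knockdown was measured without it. All the lines carried a lentiviral shRNA and were polyclonal populations selected with puromycin. From every condition 4 separately collected pellets were fractionated, with 1 polysomal library per pellet (mRNA with more than 3 ribosomes) and 1 matched sub-polysomal library (fewer than 3 ribosomes), 32 libraries in all. The libraries held between 12870563 and 25639437 counts. Spheroids are bulk samples, in which fewer cells of a type and less RNA per cell cannot be told apart.

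Ribosomal proteins are assembled with ribosomal RNA into the small subunit, which binds and reads the mRNA, and the large subunit, which joins the amino acids. Their mRNAs are abundant, and most of them begin with a 5′ terminal oligopyrimidine tract (TOP), a C followed by a run of C and T bases. Through this tract, LARP1 and the mTORC1 pathway can hold TOP mRNAs in light, poorly translated particles or release them to polysomes, and the mRNAs of several translation factors share this control. Dhps performs the first step of hypusination of eIF5A, a factor that assists peptide bond formation and the release of finished chains.

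Start-site windows are given for the members at both ends of the ranking by polysomal to sub-polysomal ratio, since their position in the gradient is the main measurement below. No window was available for Rplp1, which was also among the 3 lowest. Each window holds 10 bases before the annotated start and 20 bases from it, 5′ to 3′ on the strand of the transcript, from RefSeq on GRCm38.p6. Capitals mark a TOP-like tract, meaning a C no more than 2 bases from the annotated start that is followed by at least 4 bases, each C or T. Only the transcript strand was searched.
Rplp0, lowest ratio, chr5:115559457-115559486, plus strand: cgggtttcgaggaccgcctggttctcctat
Rpl41, among the 3 lowest, chr10:128549149-128549178, minus strand: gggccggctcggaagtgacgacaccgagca
Rpl7l1, highest, chr17:46782637-46782666, minus strand: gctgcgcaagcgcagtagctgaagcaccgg
Rpl36al, among the 3 highest, chr12:69184048-69184077, minus strand: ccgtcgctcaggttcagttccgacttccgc
Rpl7a, among the 3 highest, chr2:26910797-26910826, plus strand: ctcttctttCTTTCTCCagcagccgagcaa
Windows with a clear tract, chosen for display after they had been seen, are those of Rplp2 (P stalk), Rpl38 (large subunit) and Rps27 (small subunit).
Rplp2, chr7:141447641-141447670, plus strand: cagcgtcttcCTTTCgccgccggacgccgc
Rpl38, chr11:114668570-114668599, plus strand: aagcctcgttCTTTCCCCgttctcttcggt
Rps27, chr3:90213629-90213658, minus strand: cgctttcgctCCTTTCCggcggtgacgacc
The tract was found in 20 of the 57 ribosomal proteins of the 2 subunits that had a RefSeq window (35.1%) and in 1398 of all 11444 genes with one (12.2%). It was found in 7 of 15 other TOP mRNAs (46.7%) and in 8 of 69 mRNAs of mitochondrial ribosomal proteins (11.6%). With the starts of GENCODE transcripts, an alternative added after the data had been seen, it was found in 11 of 77 ribosomal proteins (14.3%) and in 6.35% of 13376 genes. Annotated starts often lie some bases away from the start in use, and a window without a match says only that these letters are not in it.

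The knockdowns were examined first. CPM values are counts scaled to the library total after that total was adjusted by a TMM normalization factor. In sub-polysomal RNA, Dhps was at 42.9, 33.2, 43.3 and 41.3 CPM in the ASP shSCR pellets. It was at 9.98, 10.8, 10.2 and 8.96 CPM in the ASP shDHPS pellets, and the groups did not overlap. The log2 difference was 2.01 (SE 0.16, edgeR adjusted p = 1.113e-08). Grin2d was at 4.29, 3.74, 6.91 and 3.32 CPM in ASP shSCR and at 2.59, 1.87, 2.62 and 2.89 CPM in ASP shGRIN2D. It was lower in every knockdown pellet than in any control pellet, but with a log2 difference of 0.88 (SE 0.29) and an edgeR adjusted p of 0.2325 it did not pass the test. The epithelial genes of a carcinoma line were abundant in every library, with Epcam between 220.2 and 926.4 CPM and Krt8 between 550.3 and 3055 CPM. Of other cell types, the leukocyte gene Ptprc did not exceed 0.8787 CPM and the endothelial gene Pecam1 did not exceed 0.6578 CPM. The macrophage gene Cd68 reached 26.44 CPM and the mesenchymal gene Pdgfra 35.58 CPM. Of the receptors that define the triple-negative class, Esr1 lay between 0.9191 and 7.735 CPM, while Erbb2 lay between 50.58 and 155.9 CPM.

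One polysomal library, that of ASP shSCR replicate 1, stood apart. Each library was placed on a scale set by 10959 other genes. On it, 0 was the mean sub-polysomal and 1 the mean polysomal profile of the 3 conditions other than its own. ASP shSCR replicate 1 lay at 0.37, and the other ASP shSCR polysomal libraries, on the same scale, at 0.78, 1.02 and 1.00. Polysomal libraries of the other conditions lay between 0.84 and 1.27, on scales whose means include ASP shSCR replicate 1. Mitochondrially encoded mRNAs are not translated on cytosolic polysomes. They took 0.34% to 1.19% of counts in the other polysomal libraries and 4.81% to 9.64% in the sub-polysomal libraries. The polysomal library of ASP shSCR replicate 1 had 4.72% of its counts from them. It held 11822 CPM of Rplp0 mRNA, compared with 935, 616 and 848 CPM in the polysomal libraries of the other 3 ASP shSCR pellets, and 69191 counts of Rps2. In this pellet the log2 polysomal to sub-polysomal ratio was above the mean of the other 3 pellets by more than 1 for 9 of the 89 members, and the median shift over members was 0.21. Leaving it out changed the call of 1 member within ASP shSCR, Rpl19, which then passed (−0.55, edgeR adjusted p = 0.02814). Among members with at least 50 counts on average, it moved the fitted ratio of Rplp0, Rplp1, Rpl12, Rpsa and Rps2 by more than 1.5-fold, and values without replicate 1 are given beside the results it moves.

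Ribosomal protein mRNAs were enriched in sub-polysomal RNA in every pellet of every condition. In ASP shSCR they took 9.01%, 7.50%, 6.42% and 6.58% of polysomal counts and 14.5%, 17.8%, 13.9% and 11.6% of sub-polysomal counts of replicates 1 to 4. In NoASP shSCR they took 6.80%, 6.80%, 7.64% and 5.84% of polysomal and 14.6%, 15.5%, 14.5% and 10.4% of sub-polysomal counts. The sub-polysomal share was the higher of the pair in all 8 control pellets. In ASP shGRIN2D the polysomal shares were 5.03%, 9.51%, 7.03% and 5.65% and the sub-polysomal shares 10.8%, 14.7%, 12.3% and 10.9%. In ASP shDHPS they were 6.56%, 8.42%, 7.59% and 7.89% in polysomal and 11.9%, 14.2%, 12.6% and 9.52% in sub-polysomal RNA. Within a pellet the sub-polysomal share exceeded the polysomal share 1.61 to 2.38-fold in ASP shSCR, 1.78 to 2.28-fold in NoASP shSCR, 1.55 to 2.15-fold in ASP shGRIN2D and 1.21 to 1.81-fold in ASP shDHPS. The mean log2 ratio of the shares was −0.97 ± 0.26 (SD, n = 4), −1.01 ± 0.16, −0.87 ± 0.20 and −0.65 ± 0.26 in the same order, and −1.06 in ASP shSCR without replicate 1. The ranges of the 4 conditions overlapped. Because library sizes and scaling are relative, these ratios do not say what part of the mRNA of a gene was on polysomes.

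**Figure D1:**
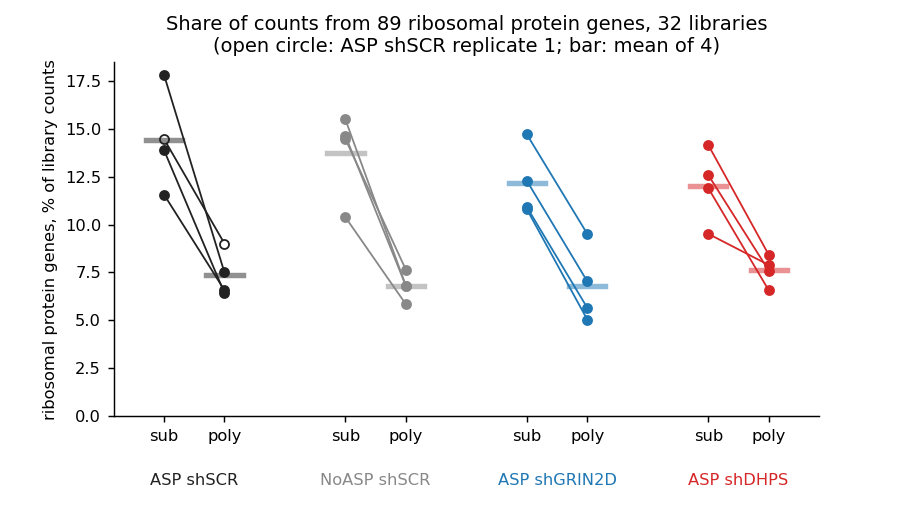
Share of library counts taken by the 89 ribosomal protein genes (percent, y axis) in the sub-polysomal (sub) and polysomal (poly) library of each pellet, by condition (x axis), with a line joining the libraries of a pellet, a bar at the mean of 4 and an open circle for ASP shSCR replicate 1. Every line falls from sub-polysomal to polysomal RNA, and the open circle ends at 9.01%.

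Gene by gene, the ratio was tested with edgeR within each condition, with the pellet as a block and with adjustment over all 17757 genes. In ASP shSCR 79 of the 89 members were lower in polysomal RNA (18.9% of all genes) and 1 was higher (20.8% of all genes), with a median log2 ratio of −1.21, compared with −0.04 over all genes. In NoASP shSCR 72 were lower (20.6% of all genes) and 2 higher (23.7%), with a median of −1.13. In ASP shGRIN2D 70 were lower (20.4%) and 2 higher (23%), with a median of −1.05. In ASP shDHPS 53 were lower (21.3%) and 3 higher (21.8%), with a median of −0.68. The count of lower members was smallest in ASP shDHPS, where the share of all genes called lower was the largest of the 4. Without replicate 1 of ASP shSCR, 80 members were lower there (19.7% of all genes in that fit) and the median was −1.31. DESeq2 called 83, 81, 77 and 59 members lower in the same order of conditions (25%, 26.8%, 25.9% and 26.3% of the genes it tested). Of the small subunit, 31, 30, 30 and 22 of 31 proteins were lower, and of the large subunit 41, 35, 33 and 26 of 46.

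The P stalk was among the strongest cases. Rplp0 forms its base and Rplp1 and Rplp2 its arms, which recruit elongation factors to the large subunit. The log2 ratio of Rplp0 was 1.10, −3.32, −2.96 and −2.26 in the ASP shSCR pellets, −3.05, −3.16, −2.61 and −2.65 in NoASP shSCR, −2.80, −2.73, −3.42 and −2.63 in ASP shGRIN2D and −2.53, −2.81, −2.26 and −2.38 in ASP shDHPS. The ratio was below −2 in every pellet but ASP shSCR replicate 1, the library set apart above. The fitted ratio was −2.04 in ASP shSCR (SE 0.45, edgeR adjusted p = 0.0005448), −2.91 without replicate 1, and −2.87, −2.90 and −2.50 in the other 3 conditions, with adjusted p of 1.879e-06, 1.508e-06 and 1.004e-05. Rplp1 followed the same pattern, with −2.07 in ASP shSCR (−2.73 without replicate 1), −2.77, −2.77 and −2.37. Rplp2 had less extreme ratios of −1.63, −1.81, −1.79 and −1.33, all past the threshold. Over the 16 pellets the means of Rplp0, Rplp1 and Rpl41, at −2.53, −2.48 and −2.48, were the 3 lowest among all members.

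Rpl41 encodes the shortest ribosomal protein, a small basic peptide of the large subunit, with a coding sequence of 75 nt before the stop codon. Its log2 ratio was −1.94, −2.68, −3.33 and −2.28 in ASP shSCR, −2.68, −2.74, −2.44 and −2.17 in NoASP shSCR, −3.10, −2.29, −2.22 and −2.39 in ASP shGRIN2D and −3.02, −2.63, −2.11 and −1.66 in ASP shDHPS. All 16 values were below −1.6 and the conditions overlapped. The fitted ratio ranged only from −2.56 in ASP shSCR to −2.35 in ASP shDHPS, and each condition passed the test.

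Other proteins with a known role in the large subunit lay closer to 0. Rpl5 and Rpl11 form the 5S particle, which is built with 5S ribosomal RNA and can bind MDM2 when ribosome assembly fails. Rpl5 was lower in polysomal RNA in ASP shSCR, at −0.78 (SE 0.22, edgeR adjusted p = 0.005811). It was at −0.49, −0.45 and −0.30 in NoASP shSCR, ASP shGRIN2D and ASP shDHPS, where it did not pass in this edgeR fit. In NoASP shSCR it passed without replicate 4 (−0.70), and with RLE size factors. With DESeq2 it passed in NoASP shSCR (−0.59, adjusted p = 0.01033) and ASP shGRIN2D (−0.52, adjusted p = 0.02522). With edgeR it also passed in both with at least 10 counts in every library. Rpl11 had ratios of −0.80, −0.70, −0.42 and −0.32 in the ASP shSCR pellets and of −0.31, 0.02, 0.11 and 0.34 in the ASP shDHPS pellets. These groups adjoined without overlap. In this edgeR fit Rpl11 passed within ASP shSCR alone of the 4 conditions, at −0.56 (SE 0.18, adjusted p = 0.01421). With DESeq2 it also passed in NoASP shSCR (−0.47, adjusted p = 0.001952) and ASP shGRIN2D (−0.40, adjusted p = 0.008326). With edgeR it passed in both with at least 10 counts in every library, and in NoASP shSCR with RLE size factors. Rpl3, near the peptidyl transferase centre, was lower in 3 conditions (−0.69, −0.72 and −0.66) and was at −0.25 in ASP shDHPS (adjusted p = 0.376). Its calls were lost without ASP shSCR replicate 2 (−0.53) or 3 (−0.65), NoASP shSCR replicate 1 (−0.64) or 2 (−0.54), or ASP shGRIN2D replicate 3 (−0.55). Rpl4, which lines the exit tunnel, was lower in ASP shSCR, NoASP shSCR and ASP shDHPS (−0.77, −0.74 and −0.54) and was at −0.47 in ASP shGRIN2D (adjusted p = 0.05878). In ASP shGRIN2D it passed with RLE size factors (edgeR adjusted p = 0.02939), at least 10 counts in every library (edgeR adjusted p = 0.02043) and DESeq2 (adjusted p = 0.005386). In ASP shDHPS its call was lost without replicate 1 (−0.39), 2 (−0.55) or 3 (−0.52). Rpl13a, known from the GAIT complex that silences inflammatory mRNAs, was lower in all 4 conditions (−1.21, −1.30, −1.08 and −0.70).

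In the small subunit, Rpsa, which is also known as a laminin receptor, was lower in all 4 conditions, at −1.68 in ASP shSCR (−2.38 without replicate 1) and −2.14, −2.14 and −1.69 in NoASP shSCR, ASP shGRIN2D and ASP shDHPS. Its pellet values in ASP shSCR were 0.48, −2.84, −2.33 and −1.77, so replicate 1 again lay alone above 0. Rps19, which is mutated in Diamond-Blackfan anaemia, was at −0.72, −1.99, −1.43 and −0.72 in the ASP shSCR pellets and at −0.97, −1.02, −0.73 and −0.25 in the ASP shDHPS pellets. These overlapped, and the gene was lower in all 4 conditions, with fitted ratios between −1.32 and −0.74. Rps6, the substrate of the S6 kinases, was lower in ASP shSCR, NoASP shSCR and ASP shGRIN2D (−0.90, −0.84 and −0.73) and at −0.44 in ASP shDHPS (edgeR adjusted p = 0.09322). In ASP shDHPS it passed without replicate 4 (−0.64), with at least 10 counts in every library (−0.51, edgeR adjusted p = 0.03606) and with DESeq2 (−0.47, adjusted p = 0.02633). Rps3, at the mRNA entry channel, was likewise lower in ASP shSCR, NoASP shSCR and ASP shGRIN2D (−0.94, −0.83 and −0.63) and at −0.21 in ASP shDHPS (edgeR adjusted p = 0.3834). Rps27a, made as a fusion with ubiquitin, passed in ASP shSCR (−0.73, adjusted p = 0.005562) and was at 0.02 in ASP shDHPS (adjusted p = 0.9717). That a gene passed in one condition and missed the threshold in another does not show a difference between them, and the difference itself is tested further on.

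**Figure D2:**
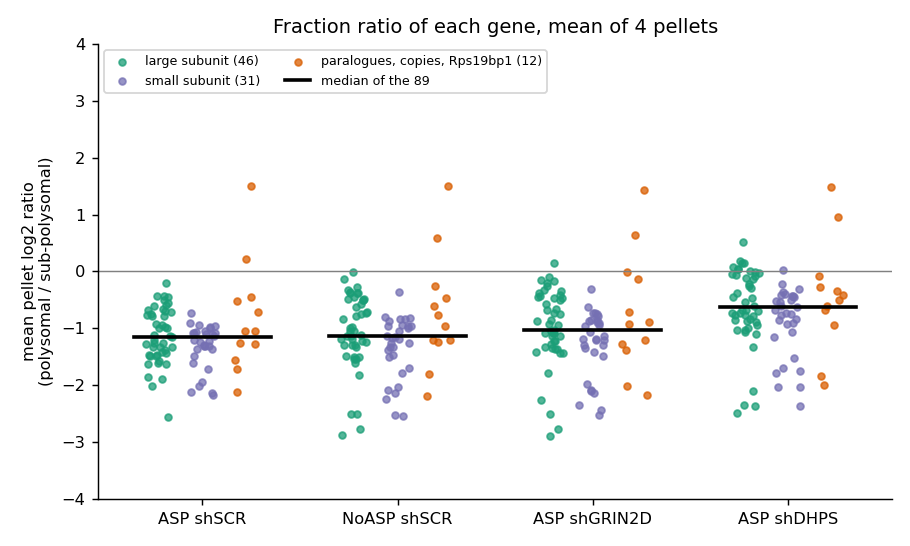
Mean log2 polysomal to sub-polysomal ratio of 4 pellets (y axis) for each of the 89 members, by condition (x axis), with 46 large subunit genes, 31 small subunit genes and the other 12 members in separate columns and a bar at the median of the 89. Most points lie below 0 in each condition, the highest point of each condition is Rpl7l1, and the median of ASP shDHPS lies nearest to 0.

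The related paralogues did not all share the position of their partners. Rpl7l1, a relative of Rpl7, was the member with the highest ratio, at 1.07, 1.74, 1.69 and 1.50 in ASP shSCR, 1.62, 1.69, 1.50 and 1.20 in NoASP shSCR, 1.32, 1.77, 1.41 and 1.22 in ASP shGRIN2D and 1.68, 1.62, 1.33 and 1.30 in ASP shDHPS. Every pellet was above 1, and Rpl7l1 was called higher in polysomal RNA in all 4 conditions (1.50, 1.50, 1.43 and 1.48, SE 0.17 each). Rpl7 itself averaged −0.13 over the 16 pellets. Rpl36al averaged 0.60 and its partner Rpl36a −0.63. Rpl36al was higher in NoASP shSCR (0.60, edgeR adjusted p = 0.01148), ASP shGRIN2D (0.64, adjusted p = 0.007177) and ASP shDHPS (0.96, adjusted p = 0.0001569), and in ASP shSCR its pellets were at −0.57, 0.50, 0.74 and 0.19. The call was lost in NoASP shSCR without replicate 3 (0.52) and in ASP shGRIN2D without replicate 2 (0.50). The other pairs lay together. Rpl22 averaged −1.30 and Rpl22l1 −1.21, and Rps27 averaged −2.0 and Rps27l −1.88, and all 4 genes were lower in polysomal RNA in each condition.

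Among the members called higher, the third was Rpl7a, a protein of the large subunit, with 0.52 in ASP shDHPS (edgeR adjusted p = 0.04578), a call that was lost without replicate 1, 3 or 4 (0.51, 0.52 and 0.42) and with RLE size factors (0.48), TMM factors without ribosomal protein and TOP genes (0.51) or a filter of at least 10 counts (0.45). Its pellets there were at 0.54, 0.18, 0.52 and 0.83, and those of ASP shSCR at −0.37, −0.89, 0.09 and 0.34. The copies lay near their parents, with means over 16 pellets of −0.88 for Rps3a2 and −0.87 for Rps3a1, −1.09 for Rpl37rt and −1.04 for Rpl37, and −0.25 for both Rpl6l and Rpl6. Reads of near-identical copies can be split between them in quantification, so these values are uncertain. Rps23rg1, with 0 to 8 counts, and Rpl32l, with 1 to 26 counts, were too low to be read. Rps19bp1 averaged −0.62 and was lower in ASP shSCR, NoASP shSCR and ASP shGRIN2D (−0.71, −0.61 and −0.71), though not without NoASP shSCR replicate 3 (−0.49) or 4 (−0.58) or ASP shGRIN2D replicate 1 (−0.49).

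A short coding sequence has room for fewer ribosomes, and the ratio was set beside coding length, taken from GENCODE on GRCm38. Over the 77 proteins of the subunits, Pearson's r between the log2 of coding length and the ratio was 0.64 in ASP shSCR, 0.44 in NoASP shSCR, 0.48 in ASP shGRIN2D and 0.45 in ASP shDHPS (Spearman's rho 0.63, 0.48, 0.52 and 0.49). In ASP shSCR without replicate 1, r was 0.49 and rho 0.54. The correlation is across genes, which are not independent replicates and share the same libraries, and over 10292 other genes it was 0.20 for the mean of the 16 pellets. Within a class of coding length, the medians of these subunit proteins lay lower than those of other genes with a mean of at least 50 counts. From 301 to 600 nt, the median log2 ratio in ASP shSCR was −1.24 for 46 subunit proteins and −0.37 for 1137 other genes, and in ASP shDHPS it was −0.70 and −0.26. From 601 to 1000 nt it was −0.94 for 20 subunit proteins and 0.06 for 1949 other genes in ASP shSCR, and −0.44 and 0.14 in ASP shDHPS. For coding sequences up to 300 nt, it was −1.72 for 9 subunit proteins and −1.0 for 210 other genes in ASP shSCR. Without replicate 1, the ASP shSCR medians of the subunit proteins were −1.84, −1.37 and −1.08 in order of length, and those of the other genes −0.95, −0.30 and 0.10. With the paralogues, copies and Rps19bp1 included, the classes in order of length held 11, 50 and 21 members with medians of −1.72, −1.22 and −0.94 in ASP shSCR, and the 5 copies without a coding length were left out. Rplp0, with 951 nt, shared its low ratio with Rpl41, with 75 nt. Among the 57 ribosomal proteins of the subunits with a RefSeq window, the median ratio over 16 pellets was −1.07 for the 20 with a TOP-like tract and −1.03 for the others. With GENCODE starts it was −1.11 for the 11 with a tract and −0.99 for the others. Over all matched members it was −1.30 for 13 and −0.88 for the rest with GENCODE starts. With RefSeq windows it was −1.07 for 24 members and −0.95 for the rest. These differences were not tested.

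**Figure D3:**
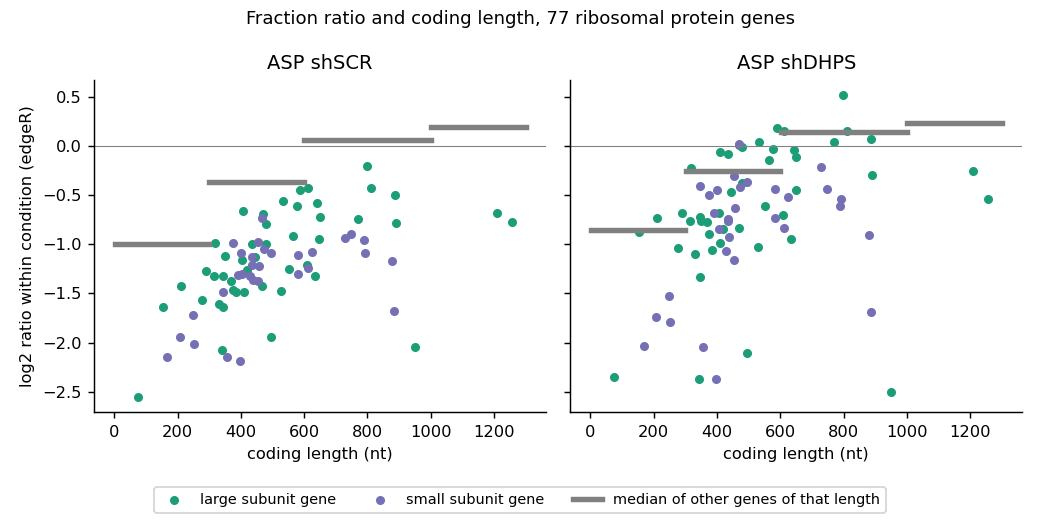
Log2 polysomal to sub-polysomal ratio fitted by edgeR (y axis) against coding length in nucleotides (x axis) for 77 ribosomal protein genes in ASP shSCR and ASP shDHPS, with grey bars at the median of the other genes of each length class. Points rise with length and lie mostly below the bars, and Rpl41, at the far left, is at −2.56 in ASP shSCR and −2.35 in ASP shDHPS.

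Other TOP mRNAs showed a mixed picture. Of 22 in the list, which holds elongation factors and the ribosomal proteins with other symbols, 11 were lower in polysomal RNA in each of the 4 conditions, beside 18.9%, 20.6%, 20.4% and 21.3% of all genes, and 3, 4, 4 and 5 were higher, beside 20.8%, 23.7%, 23% and 21.8%. The same 11 genes were lower in all 4 conditions, among them Eef1a1, Eef1b2, Eef1g, Eef2, Eif3f, Eif4b, Fau, Pabpc1, Rack1 and Tpt1. Pabpc1, the poly(A)-binding protein, was at −2.0 in ASP shSCR (−2.73 without replicate 1) and at −2.60, −2.85 and −2.84 with no aspartate, with Grin2d silenced and with Dhps silenced. The ribosomal proteins Fau and Rack1 were at −1.06 and −1.22 in ASP shSCR and at −0.46 and −0.78 in ASP shDHPS. Btf3, Eef1d and Eif2s3x were higher in polysomal RNA in all 4 conditions. The proteins of the mitochondrial ribosome are also made on cytosolic ribosomes, but their mRNAs are not TOP mRNAs as a class. Of 83 such mRNAs, 23 were lower and 24 higher in ASP shSCR (27.7% and 28.9%, beside 18.9% and 20.8% of all genes), with a median of 0.05, and without replicate 1 these counts were 18 and 28 (21.7% and 33.7%, beside 19.7% and 20.7% of all genes) with a median of 0.13. In ASP shDHPS 15 were lower and 35 higher (18.1% and 42.2%, beside 21.3% and 21.8%), with a median of 0.37. Of 14 regulators of TOP mRNA translation, 4 were lower in polysomal RNA in each condition and 2, 2, 2 and 1 higher, with the same shares of all genes as above. Eif4ebp1 and Eif4ebp2, which encode inhibitors of eIF4E, and the S6 kinase gene Rps6kb2 were lower in all 4 conditions. The other lower gene was Akt1s1, an mTORC1 subunit gene, in the first 3 conditions (−0.63, −0.72 and −0.67, compared with −0.21 in ASP shDHPS) and the S6 kinase gene Rps6kb1 in ASP shDHPS (−0.74), where the higher gene was Mlst8 (0.75). The differences between ASP shSCR and ASP shDHPS did not pass the edgeR test for these 3 genes (adjusted p = 0.4805, 0.09948 and 0.7084). Deptor, an inhibitor of mTOR (0.92, 0.81 and 0.84), and Larp4 (1.02, 0.83 and 0.87) were higher in ASP shSCR, NoASP shSCR and ASP shGRIN2D. Larp1 was at −0.11, −0.02, −0.09 and −0.19 and was not called, and Mtor was not called either.

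The next question was whether aspartate, Grin2d or Dhps changed the position of these mRNAs. No member passed the edgeR test for a difference of the ratio between conditions in any of the 4 comparisons, which share the ASP shSCR pellets in 3 of them (0% of all genes were called for ASP shSCR minus NoASP shSCR and minus ASP shGRIN2D, 0.208% for ASP shSCR minus ASP shDHPS and 0.00563% for ASP shGRIN2D minus ASP shDHPS). At an unadjusted p under 0.05, 0, 0, 36 and 4 of the 89 members had a lower ratio in the condition named first (0.918%, 1.41%, 4.93% and 1.21% of all genes) and 0 had a higher one (1.01%, 1.81%, 8.68% and 5.2%). The medians of the differences were −0.10 for ASP shSCR minus NoASP shSCR, −0.17 for minus ASP shGRIN2D, −0.53 for minus ASP shDHPS and −0.36 for ASP shGRIN2D minus ASP shDHPS, while the medians of all genes lay between −0.02 and 0.01. Thus 82 of the 89 members had a lower ratio in ASP shSCR than in ASP shDHPS, beside 8732 of all 17757 genes. Leaving out ASP shSCR replicate 1 made these counts 86 and 9124. Without replicate 1 of ASP shSCR the first 3 medians were −0.16, −0.25 and −0.62. The first median turned above 0 without ASP shSCR replicate 2. DESeq2, which was an alternative test, called 21 members lower in ASP shSCR than in ASP shDHPS (1.86% of the genes it tested), 0 lower than in NoASP shSCR or ASP shGRIN2D (0% each) and 1, Rps26, lower in ASP shGRIN2D than in ASP shDHPS (0.0178%).

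The pellets themselves were then compared without a test. In 23 of 89 members every ASP shSCR pellet lay below every ASP shDHPS pellet (2.15% of all genes), and in 0 members every one lay above (4.71%). Without replicate 1 of ASP shSCR the first count was 31 (4.11% of all genes), an alternative added after the data had been seen. It was 12 for ASP shGRIN2D below ASP shDHPS (1.53%), 2 for ASP shSCR below ASP shGRIN2D, which were Rpl21 and Rps24 (1.04%), and 0 for ASP shSCR below NoASP shSCR (0.963%). The condition with the highest mean ratio was ASP shDHPS for 80 of 89 members (30.9% of all genes), and it was the lowest for 0 members (32% of all genes).

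**Figure D4:**
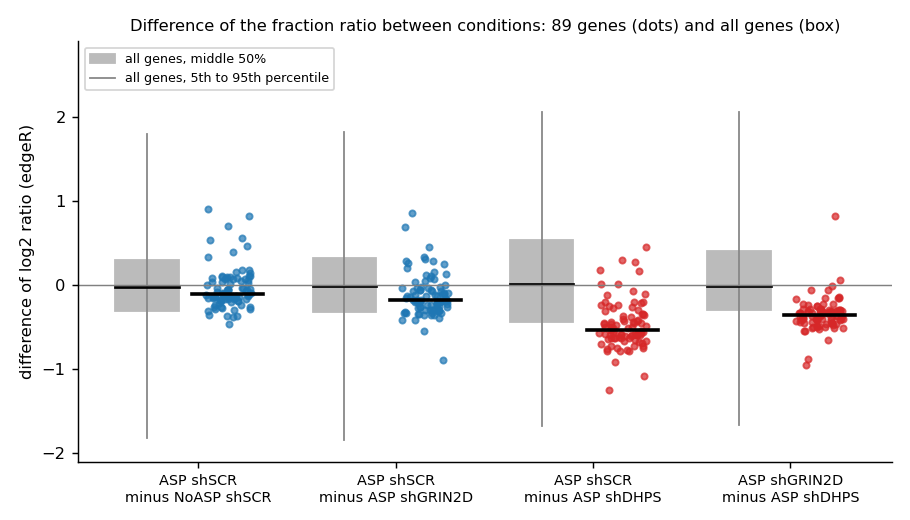
Difference of the log2 polysomal to sub-polysomal ratio between conditions (edgeR, y axis) for the 89 members (dots, with a bar at their median) beside all genes (box for the middle 50%, line from the 5th to the 95th percentile), for 4 comparisons (x axis). The dots are centred below 0 against ASP shDHPS, with medians of −0.53 for ASP shSCR and −0.36 for ASP shGRIN2D, and lie largely within the range of all genes.

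Rps26, a protein of the small subunit near the mRNA exit channel, had the smallest p. Its log2 ratio was −1.28, −1.62, −1.54 and −1.49 in ASP shSCR, −1.46, −1.50, −1.21 and −1.16 in NoASP shSCR, −1.63, −1.01, −1.18 and −1.32 in ASP shGRIN2D and −0.54, −0.54, −0.46 and −0.07 in ASP shDHPS. All 4 ASP shDHPS pellets lay above the 12 others, and the gap to the nearest ASP shSCR pellet was 0.74. In polysomal RNA Rps26 was at 983, 975, 799 and 800 CPM in ASP shSCR and at 1170, 1330, 1280 and 1357 CPM in ASP shDHPS. In sub-polysomal RNA it was at 2387, 2995, 2316 and 2254 CPM in ASP shSCR and at 1705, 1931, 1762 and 1425 CPM in ASP shDHPS. Its counts were thus higher in polysomal and lower in sub-polysomal RNA after Dhps silencing, without overlap in either. The difference of the ratio, ASP shSCR minus ASP shDHPS, was −1.08 (SE 0.25) with an edgeR adjusted p of 0.05397, just outside the threshold, and a DESeq2 adjusted p of 4.017e-05. Without ASP shSCR replicate 1 it was −1.18 with an edgeR adjusted p of 0.04783. Over 14 alternatives with no block across conditions, the difference lay between −1.18 and −0.97 and its adjusted p (edgeR or DESeq2) between 4.017e-05 and 0.2423, the highest with the 2 conditions fitted alone, and 3 of the 14 passed. For ASP shGRIN2D minus ASP shDHPS it was −0.88 (SE 0.25, edgeR adjusted p = 0.3522, DESeq2 adjusted p = 0.003952).

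Other members also had a gap between ASP shSCR and ASP shDHPS. Rpl26, which is also known to bind the p53 mRNA, was at −0.77, −1.42, −1.05 and −0.73 in ASP shSCR and at −0.08, −0.31, −0.25 and 0.31 in ASP shDHPS, a difference of −0.91 (SE 0.25, edgeR adjusted p = 0.0945, DESeq2 adjusted p = 0.003607). Rpl36a was at −1.02, −1.22, −1.01 and −0.68 in ASP shSCR and at −0.32, −0.35, −0.38 and 0.16 in ASP shDHPS. The gap between the groups was 0.42 for Rpl26 and 0.30 for Rpl36a, and 0.27 for Rpl24, 0.26 for Rps13 and 0.19 for Rpl18. These genes were chosen for display by their gap, after it was seen. Rpl21 had the smallest p in the comparisons with NoASP shSCR and ASP shGRIN2D. It was at −0.86, −1.17, −0.61 and −0.51 in ASP shSCR, −0.53, −0.83, −0.01 and 0.09 in NoASP shSCR, −0.29, −0.16, −0.30 and −0.25 in ASP shGRIN2D and −0.06, −0.13, −0.26 and 0.41 in ASP shDHPS. The ASP shSCR pellets overlapped those of NoASP shSCR and lay below those of both knockdowns. Its differences of −0.47 from NoASP shSCR and −0.54 from ASP shGRIN2D (SE 0.27 each) both had an edgeR adjusted p of 1.

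**Figure D5:**
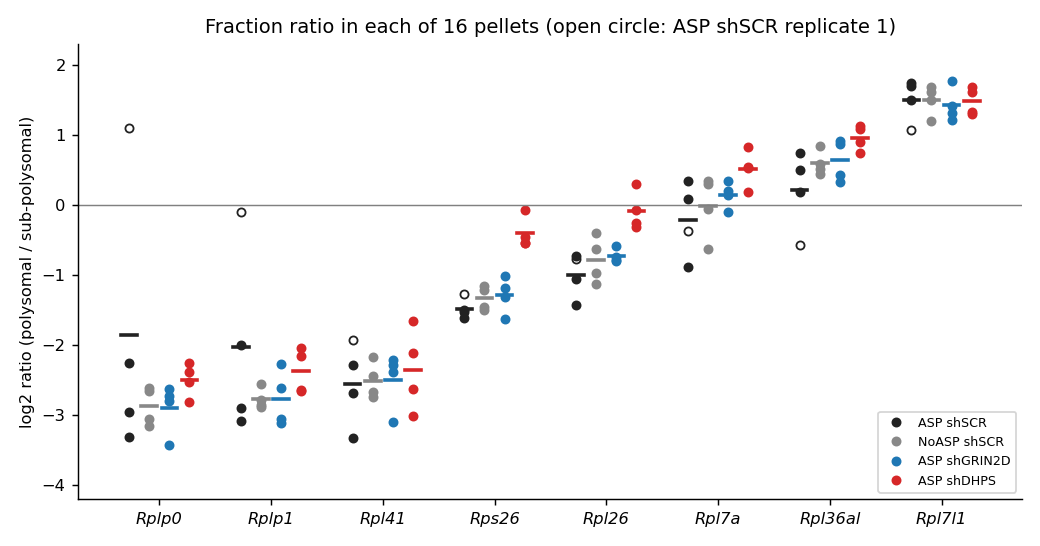
Log2 polysomal to sub-polysomal ratio (y axis) of 8 members (x axis) in each of 16 pellets, coloured by condition, with a bar at the mean of 4 and an open circle for ASP shSCR replicate 1. For Rps26 and Rpl26 the 4 ASP shDHPS pellets lie above the 4 ASP shSCR pellets, and for Rplp0 the open circle lies at 1.10, apart from the other pellets.

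The 7 members with a difference above 0 between ASP shSCR and ASP shDHPS were Rplp0, at 0.45, Rplp1, Rpsa, Rpl12, Rps12, Rps27l and Rpl7l1. The mean pellet ratio of ASP shSCR without replicate 1 minus that of ASP shDHPS was −0.35 for Rplp0, −0.29 for Rplp1, −0.62 for Rpsa, −0.40 for Rpl12 and −0.19 for Rps12, so the direction of these 5 rests on that library. It was 0.13 for Rps27l and 0.16 for Rpl7l1. By coding length, the median difference between ASP shSCR and ASP shDHPS was −0.23 for the 9 subunit proteins up to 300 nt, −0.58 for the 46 from 301 to 600 nt and −0.53 for the 20 from 601 to 1000 nt. Over all 11, 50 and 21 members of these classes, Rps27l and Rpl7l1 included, it was −0.23, −0.57 and −0.51. Other genes of the same classes had medians of −0.12, −0.09 and −0.07. Without ASP shSCR replicate 1 the medians were −0.56, −0.66 and −0.62 for the subunit proteins and −0.06, −0.07 and −0.12 for the others. The 441 other genes with coding sequences over 5000 nt moved the other way, at 0.32. The median was −0.58 for the large subunit and −0.46 for the small subunit, and −0.64 and −0.61 without replicate 1. Of the other lists, 3 of 22 other TOP mRNAs and 2 of 83 mRNAs of mitochondrial ribosomal proteins lay lower in ASP shSCR than in ASP shDHPS without overlap (13.6% and 2.41%, beside 2.15% of all genes). The median differences of these 2 lists were −0.42 and −0.30, and −0.40 and −0.19 without replicate 1. In the fit with all pellets, 20 of 22 and 68 of 83 were below 0, beside 8732 of all 17757 genes.

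Levels within each fraction were then compared, since a ratio can move through either. No member passed the edgeR test in sub-polysomal or polysomal RNA in any of the 4 comparisons (in sub-polysomal RNA 0%, 0.315%, 1.41% and 0.726% of all genes were called, and in polysomal RNA 0%, 0.0169%, 0.169% and 0.0845%). In sub-polysomal RNA the median log2 difference was 0.14 for ASP shSCR minus NoASP shSCR, 0.27 for minus ASP shGRIN2D, 0.36 for minus ASP shDHPS and 0.09 for ASP shGRIN2D minus ASP shDHPS. Leaving out 1 pellet gave medians of −0.02 to 0.26, 0.11 to 0.39, 0.19 to 0.46 and −0.05 to 0.18. The lowest of each range was reached without ASP shSCR replicate 2 in the first 3 comparisons and without ASP shGRIN2D replicate 2 in the last, and the first median was also below 0 without NoASP shSCR replicate 4. At an unadjusted p under 0.05, 0, 5, 25 and 1 members were higher in the condition named first (2.47%, 5.77%, 7.75% and 4.85% of all genes). In polysomal RNA the medians were 0.09, 0.11, −0.09 and −0.24, and without ASP shSCR replicate 1 the first 3 were −0.03, −0.04 and −0.28. There 7, 7, 5 and 0 members were higher at an unadjusted p under 0.05 (6.87%, 7.03%, 12% and 6.38% of all genes) and 0, 0, 2 and 2 lower (0.879%, 2.02%, 4.34% and 3.02%).

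Among single genes, Rps2, a small subunit protein at the mRNA entry channel, had the smallest p in sub-polysomal RNA, with a log2 difference of 0.68 between ASP shSCR and ASP shDHPS (SE 0.22, edgeR adjusted p = 0.1168). DESeq2 called 4 members higher there, which were Rps2 (0.69), Rps10 (0.64), Rps26 (0.56) and Rps13 (0.52), beside 2.92% of the genes it tested. By edgeR, Rps26 was at 0.55 in sub-polysomal RNA (SE 0.18, adjusted p = 0.1329) and at −0.46 in polysomal RNA (SE 0.22, adjusted p = 0.3054). In the same fraction, the smallest p belonged to Rpl18 for ASP shSCR minus NoASP shSCR (0.32, adjusted p = 0.8483) and to the copy Rps3a3 for ASP shGRIN2D minus ASP shDHPS (0.67, adjusted p = 0.3398). In polysomal RNA, Rplp0 was higher in ASP shSCR by 2.68, 2.67 and 2.37 on the log2 scale than in NoASP shSCR, ASP shGRIN2D and ASP shDHPS, with edgeR adjusted p of 0.3516, 0.2444 and 0.1179. Without replicate 1 these differences were 0.30, 0.31 and 0.01. Rpl8, a large subunit protein near the peptidyl transferase centre, had the smallest p for ASP shGRIN2D minus ASP shDHPS in polysomal RNA (−0.55, SE 0.19, adjusted p = 0.3524).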

How the data were processed

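The 32 libraries were made from polysomal and sub-polysomal fractions with a stranded mRNA kit. The deposited values are counts per gene that the authors made with Trim Galore 0.6.6, STAR 2.6.1 (GRCm39) and Salmon 1.4.0, rounded to whole numbers and filtered to 17757 genes, with no normalization. Columns of the authors' own DESeq2 differences and gene set scores were not used.

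Ratios were tested in R 4.3.3 with edgeR 4.0.16 (TMM, quasi-likelihood F-test, two-sided), with 16 pellet terms and, per condition, a polysomal term. Levels were tested among the 16 libraries of a fraction. Adjusted p are Benjamini-Hochberg values over all genes, with a threshold of 0.05. The fits were tested on simulated data. A prior count of 2 was used for log2 ratios of single pellets. Alternatives were RLE size factors, TMM without ribosomal protein and TOP genes, at least 10 counts in every library, DESeq2 1.42.0, other blocks, fits of 2 conditions and leaving out each pellet. The fractions of a pellet are matched per the study's methods.

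The members and lists were chosen with earlier results of these data known, although the rule for the members reads symbols alone. Named genes were members fixed by role, paralogue pairs, Rps19bp1, members with fewer than 50 counts on average, the 3 highest and 3 lowest mean ratios, and per comparison up to 3 called members in each direction or, where none was called, the member with the smallest p. Other genes are named where a count is small, and some items are not reported here. RefSeq windows were matched for 66 of the 89 members, and coordinates of GRCm38 were not converted. Depth was 12870563 to 25639437 counts, and precision is given by the spread of 4 pellets. No identical libraries were found (0 pairs).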

Additional observations from a re-analysis of the deposited data

Results flagged for a closer look

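Among 164 groups of 4 values, 13 had a highest or lowest value far from the other 3, where chance gives about 1 in 20, or 8.2. The polysomal library of ASP shSCR replicate 1 had 4.72% of its counts from mitochondrially encoded mRNAs (0.69% to 1.00% in the other 3) and 0.934% from symbols containing -ps (0.250% to 0.310%). The -ps share of polysomal NoASP shSCR replicate 4 was 0.232% (0.271% to 0.274%), that of polysomal ASP shGRIN2D replicate 2 was 0.362% (0.219% to 0.239%), and the mitochondrially encoded share of sub-polysomal NoASP shSCR replicate 4 was 7.99% (4.98% to 5.41%).

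In the pellet log2 ratios, ASP shDHPS replicate 4 was the high value for 4 members. It was at 0.42 for Rpl5 (−0.55 to −0.52 in the other 3), 0.58 for Rps27a (−0.22 to −0.13), 0.16 for Rpl36a (−0.38 to −0.32) and 0.96 for Rpl7 (−0.22 to −0.03). Low values were Rpsa in ASP shDHPS replicate 2, at −2.33 (−1.55 to −1.43), Rpl3 in ASP shGRIN2D replicate 3, at −0.96 (−0.58 to −0.52), Rpl22 in ASP shSCR replicate 3, at −1.85 (−1.37 to −1.35), and Rps27 in ASP shGRIN2D replicate 1, at −2.60 (−1.94 to −1.93). Their cause was not tested.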

How the results depend on the processing

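Members lower in polysomal RNA stayed within 1.5 times the reported count in every condition and alternative run. The count for ASP shDHPS had the widest range, from 42 without replicate 1 of that condition (17.4% of all genes) to 61 with at least 10 counts in every library (32.4% of the genes left). For ASP shSCR minus ASP shDHPS, the 0 members called for the ratio became 1 with at least 10 counts in every library (2.41% of genes called), 2 with the replicate block across conditions (1.3%; Rps26 at −1.08, edgeR adjusted p = 0.02481, and Rpl26 at −0.91, 0.04146) and 21 with DESeq2, and 0 to 1 when a pellet was left out (1, Rps26, without ASP shSCR replicate 1, beside 0.158%). In sub-polysomal RNA the same comparison called 12 with the replicate block (4.27% of all genes, compared with 1.41% without it) and 4 with DESeq2. For the ratio of ASP shGRIN2D minus ASP shDHPS, DESeq2 called 1. Leaving out pellets gave 0 to 1 members for the polysomal level of ASP shSCR minus ASP shGRIN2D and minus ASP shDHPS, in both cases Rplp0 without ASP shSCR replicate 3 (0.552% and 1.71% of all genes), and a median of −0.28 to −0.0449 for the polysomal level of ASP shSCR minus ASP shDHPS. The median ratio difference of ASP shSCR minus NoASP shSCR ranged from −0.20 to 0.03 and was above 0 without ASP shSCR replicate 2. The cause of these shifts was not tested.

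Replicate numbers are not stated to pair pellets of different conditions. Same-numbered pellets had a median correlation of 0.164 (14 of 24 pairs over 0.1, lowest −0.27). Pellets with different numbers had a median of −0.053 (18 of 72 pairs over 0.1, lowest −0.60). Of 16 pellets, 10 lay closest to their own number. Dropping the pellet term (no replicate block) gave 79, 73, 69 and 49 lower members (16.4%, 20.8%, 20.5% and 21% of all genes) and 0 called differences.

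Values near 0 changed sign within ASP shDHPS. Rpl11 was at −0.035 and Rpl8 at −0.0298 with at least 10 counts, and Rps27a at −0.0192 with RLE factors, −0.0579 with at least 10 counts and −0.0191 with DESeq2. Leaving out pellets gave −0.0608 to 0.154 for Rpl11, −0.172 to 0.0954 for Rps27a, −0.116 to 0.273 for Rpl7, −0.151 to 0.072 for Rpl21 and −0.0252 to 0.148 for Rpl8 in ASP shDHPS, and −0.344 to 0.0302 for Rpl7 and −0.129 to 0.195 for Rpl7a in NoASP shSCR. DESeq2 moved the median of all genes in ASP shSCR from −0.04 to −0.15.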
